A study of Mus musculus with 3 samples.

Results

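The Slc25 genes encode the mitochondrial carrier family, and their chromatin was examined here in peak lists of the forkhead transcription factor Foxp4 and of H3K27ac, a histone acetylation found at active promoters and enhancers. Members were all genes whose symbol is Slc25a followed by a number. RefSeq holds 47 such protein-coding genes, of 21031 in all, and 27 of the 47 had at least 1 peak. They accounted for 19 of 16937 Foxp4 peaks and 37 of 17564 H3K27ac peaks. Both lists come from chromatin immunoprecipitation with sequencing (ChIP-seq) of beige adipocytes, heat-producing cells recruited in white fat depots.

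The libraries were a Foxp4 ChIP, an H3K27ac ChIP and an input DNA library, 1 of each, and the input was not used here. All were of strain C57BL/6 and carried no labelled genotype or test treatment, and the age of the animals is not given in the sources used here. The cells were stromal-vascular cells of inguinal white fat, grown in 20% serum, induced for 48 h in 10% serum with dexamethasone (1 µM), isobutylmethylxanthine (0.5 mM), insulin (5 µg/ml), troglitazone (5 µM) and thyroid hormone T3 (50 nM), and then held for 6 days with insulin, T3 and troglitazone. They are cells differentiated in culture from a mixed fraction, and the only antibody named in the labels is the one against Foxp4. There was no replicate, so all values describe these 2 lists and no p-value is given. Of the adipocyte markers Pparg, Cebpa, Fabp4, Plin1, Lipe and Adipoq, 5 of 6 had an H3K27ac peak, Adipoq being the exception. Of 8 beige or brown fat markers 4 had one, and Ucp1, Prdm16, Dio2 and Cidea had none. Among all protein-coding genes, 37.5% had one at any distance. Among markers of other cells, an H3K27ac peak was assigned to 2 of 3 progenitor genes, 1 of 3 macrophage genes (Cd68), 2 of 3 endothelial genes and 0 of 3 skeletal muscle genes. Within 1000 bp of a transcription start, H3K27ac stood at 4 of 6 adipocyte markers and 1 of 8 beige or brown fat markers. It stood there at 1 of 3 progenitor, 1 of 3 macrophage, 0 of 3 endothelial and 0 of 3 skeletal muscle markers. The share over all protein-coding genes was 26.0%. The part of other cell types in the results was not tested.

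Mitochondrial carriers are membrane proteins, most of them in the inner mitochondrial membrane, that exchange nucleotides, phosphate, carboxylates, amino acids, cofactors and metal ions between the cytosol and the matrix. In fat cells they feed the respiratory chain, bring fatty acids to oxidation as acylcarnitines and export citrate for fatty acid synthesis. The uncoupling proteins, Ucp1 among them, belong to the same protein family under another gene name.

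RefSeq promoter sequences (GRCm38.p6, the assembly of mm10) were on hand for 36 of the 47 genes, as windows from 250 bases before to 50 bases after each annotated start. The first 3 below give 1 window for each gene whose promoter window held part of a Foxp4 peak, with the bases inside the Foxp4 peak in capitals. They belong to Slc25a23 (chr17:57059814-57060113), Slc25a25 (chr2:32451421-32451720) and Slc25a36 (chr9:97110992-97111291), all on the minus strand. The Foxp4 peak covered 222 of 300 bases at Slc25a23, 47 at Slc25a25 and 55 at Slc25a36, where the H3K27ac peak covered another 107 bases at the opposite end.
Slc25a23: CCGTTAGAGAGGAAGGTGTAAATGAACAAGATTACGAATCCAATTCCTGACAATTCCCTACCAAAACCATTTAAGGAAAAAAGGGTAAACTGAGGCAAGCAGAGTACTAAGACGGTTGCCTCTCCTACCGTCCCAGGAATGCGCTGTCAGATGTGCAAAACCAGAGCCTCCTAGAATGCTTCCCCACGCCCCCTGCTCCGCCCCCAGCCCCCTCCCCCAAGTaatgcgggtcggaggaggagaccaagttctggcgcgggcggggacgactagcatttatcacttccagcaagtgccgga
Slc25a25: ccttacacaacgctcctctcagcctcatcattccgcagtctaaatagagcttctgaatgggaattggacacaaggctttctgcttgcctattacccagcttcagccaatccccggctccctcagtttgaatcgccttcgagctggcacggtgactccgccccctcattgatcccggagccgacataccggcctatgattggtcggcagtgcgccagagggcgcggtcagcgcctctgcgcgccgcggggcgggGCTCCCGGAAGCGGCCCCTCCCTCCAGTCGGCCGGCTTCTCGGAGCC
Slc25a36: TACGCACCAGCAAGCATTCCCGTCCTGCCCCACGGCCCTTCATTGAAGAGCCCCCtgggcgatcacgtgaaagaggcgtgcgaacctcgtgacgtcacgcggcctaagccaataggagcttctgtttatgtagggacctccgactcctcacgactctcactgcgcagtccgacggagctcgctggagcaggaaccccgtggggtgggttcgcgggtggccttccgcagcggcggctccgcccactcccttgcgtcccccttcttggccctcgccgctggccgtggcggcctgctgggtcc

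The promoters of both ADP/ATP translocases of somatic cells are shown beside them, because 1 gene carried the second-highest H3K27ac score of the family and the other no H3K27ac peak. They are Slc25a5 (chrX:36795347-36795646, plus strand) and Slc25a4 (chr8:46211013-46211312, minus strand). Capitals mark a match to CCGGAAG, the core of the GABP motif, which only the Slc25a4 window holds of this pair.
Slc25a5: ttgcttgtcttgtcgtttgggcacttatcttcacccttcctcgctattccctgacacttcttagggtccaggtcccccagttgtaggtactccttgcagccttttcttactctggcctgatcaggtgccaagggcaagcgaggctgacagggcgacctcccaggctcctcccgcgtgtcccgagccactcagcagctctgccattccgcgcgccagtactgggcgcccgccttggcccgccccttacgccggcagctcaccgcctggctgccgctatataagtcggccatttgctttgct
Slc25a4: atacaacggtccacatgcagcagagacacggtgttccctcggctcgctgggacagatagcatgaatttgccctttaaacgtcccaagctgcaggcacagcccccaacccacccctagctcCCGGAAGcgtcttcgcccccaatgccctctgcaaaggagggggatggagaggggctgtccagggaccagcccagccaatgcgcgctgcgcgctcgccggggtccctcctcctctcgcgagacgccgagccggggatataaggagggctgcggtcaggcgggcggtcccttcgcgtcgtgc

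The first question was how many carrier genes were acetylated or had Foxp4 nearby. At the promoter, meaning a peak centre within 1000 bp of a transcription start site (TSS), H3K27ac was present at 19 of 47 Slc25 genes (40.4%) and at 26.0% of all protein-coding genes. An H3K27ac peak at any distance was assigned to 21 Slc25 genes (44.7%) and to 37.5% of all genes. Foxp4 peaks at any distance showed no such surplus, since 15 Slc25 genes (31.9%) had a Foxp4 peak, against 36.6% of all genes. A Foxp4 promoter peak stood at 5 Slc25 genes (10.6%), namely Slc25a23, Slc25a25, Slc25a36, Slc25a46 and Slc25a51, and at 6.77% of all genes. A Foxp4 peak that overlapped H3K27ac was found at 2 Slc25 genes (4.26%), Slc25a28 and Slc25a46, and at 5.36% of all genes. Peaks of both lists were assigned to 9 members (19.1%), against 20.4% of all genes. No peak of either list was assigned to 20 members (42.6%), against 46.3% of all genes.

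Some stricter settings brought the H3K27ac promoter share of the family nearer to that of all genes, and others did not. In the higher-scoring 50% of the list an H3K27ac promoter peak stood at 10 Slc25 genes (21.3%), against 18.5% of all genes. By the narrower promoter class of the authors' deposited annotation, H3K27ac was found at 7 members (14.9%), against 12.6% of all genes. That class leaves out peaks labelled intron or exon close downstream of the TSS, such as those of Slc25a3, Slc25a36 and Slc25a51. Within 500 bp of a TSS H3K27ac was found at 15 members (31.9%), against 19.3%, and without peaks in repeats at 19 (40.4%), against 25.7%. A Foxp4 promoter peak was found at 3 members (6.38%), against 4.47% of all genes, by the authors' class. In the higher-scoring 50% of the Foxp4 list it was found at 5 (10.6%), against 4.41%. A recurring set of 6 Foxp4 scores (21, 27, 34, 41, 49 and 57) held 73.1% of that list and 11 of the 19 Slc25 peaks, and without them 8 members (17.0%) had a Foxp4 peak, against 14.5% of all genes, and 4 (8.51%) a Foxp4 promoter peak, against 3.87%.

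**Figure D1:**
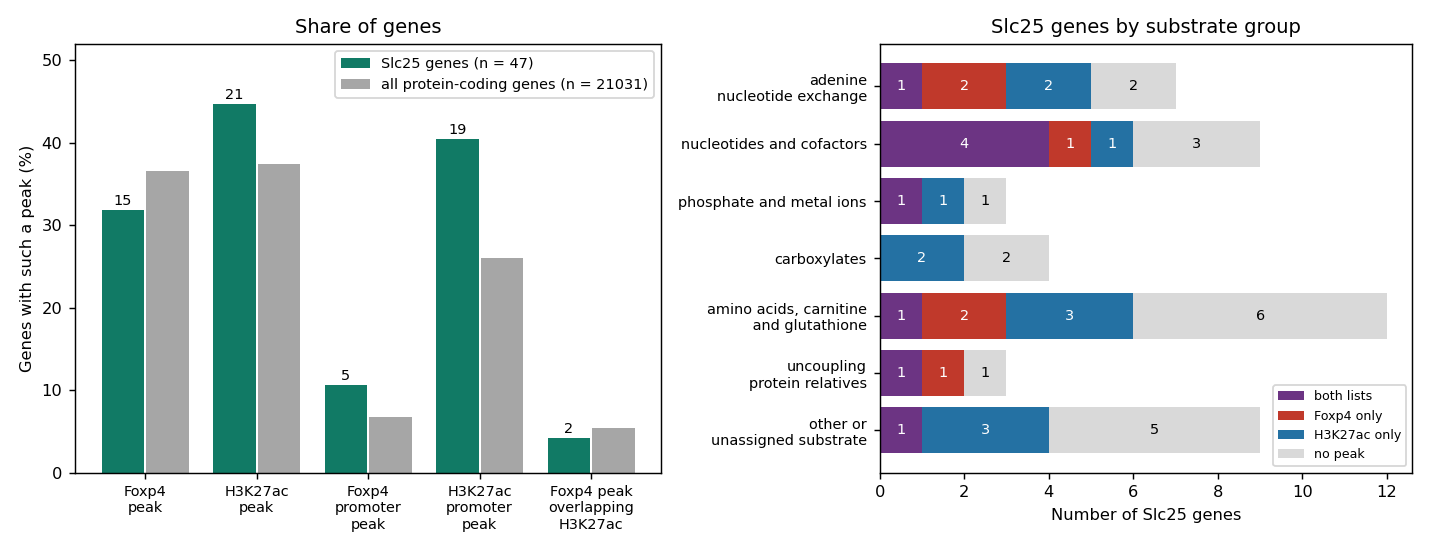
Left, percent of Slc25 genes (green, gene counts above the bars) and of all protein-coding genes (grey) with each kind of peak; right, number of Slc25 genes per substrate group with peaks in both lists, in 1 list or in neither. The Slc25 bar stands above the grey bar for H3K27ac promoter peaks (19 genes, 40.4% against 26.0%) and below it for Foxp4 peaks (15 genes, 31.9% against 36.6%).

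The deposited annotation gives each peak to the nearest TSS, which takes peaks away from genes with close neighbours. Counted from each gene's own RefSeq starts, H3K27ac lay within 1000 bp of a start at 19 of the 36 Slc25 genes with a promoter entry (52.8%) and at 29.7% of 16853 protein-coding genes. For the same 36 genes the nearest-TSS rule gave 16 (44.4%), against 26.4% of protein-coding genes with a promoter entry, so both shares were lower by that rule. The 3 genes added were Slc25a11, Slc25a25 and Slc25a29. At Slc25a11, the oxoglutarate carrier gene, an H3K27ac peak of score 52 (chr11:70647319-70648083) centred 662 bp upstream of the start and was assigned to Rnf167. At Slc25a25 the peak was assigned to Naif1, and at Slc25a29, a carrier of basic amino acids, to the microRNA gene Mir345. Foxp4 lay at an own start of 3 of the 36 genes (8.33%), against 7.58% of protein-coding genes, and these were the 3 genes whose promoters are printed above.

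At the 5 promoters with a Foxp4 peak, the Foxp4 peak mostly lay beside the acetylated stretch and not on it. It overlapped H3K27ac at 1 of the 5, whereas 42.3% of all 1605 Foxp4 promoter peaks did so. At 3 more it lay next to an H3K27ac peak with a gap of at most 1000 bp, a position held by 240 of the 1605. At the last one no H3K27ac peak was near. The difference rests on 5 peaks and was not tested.

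**Figure D2:**
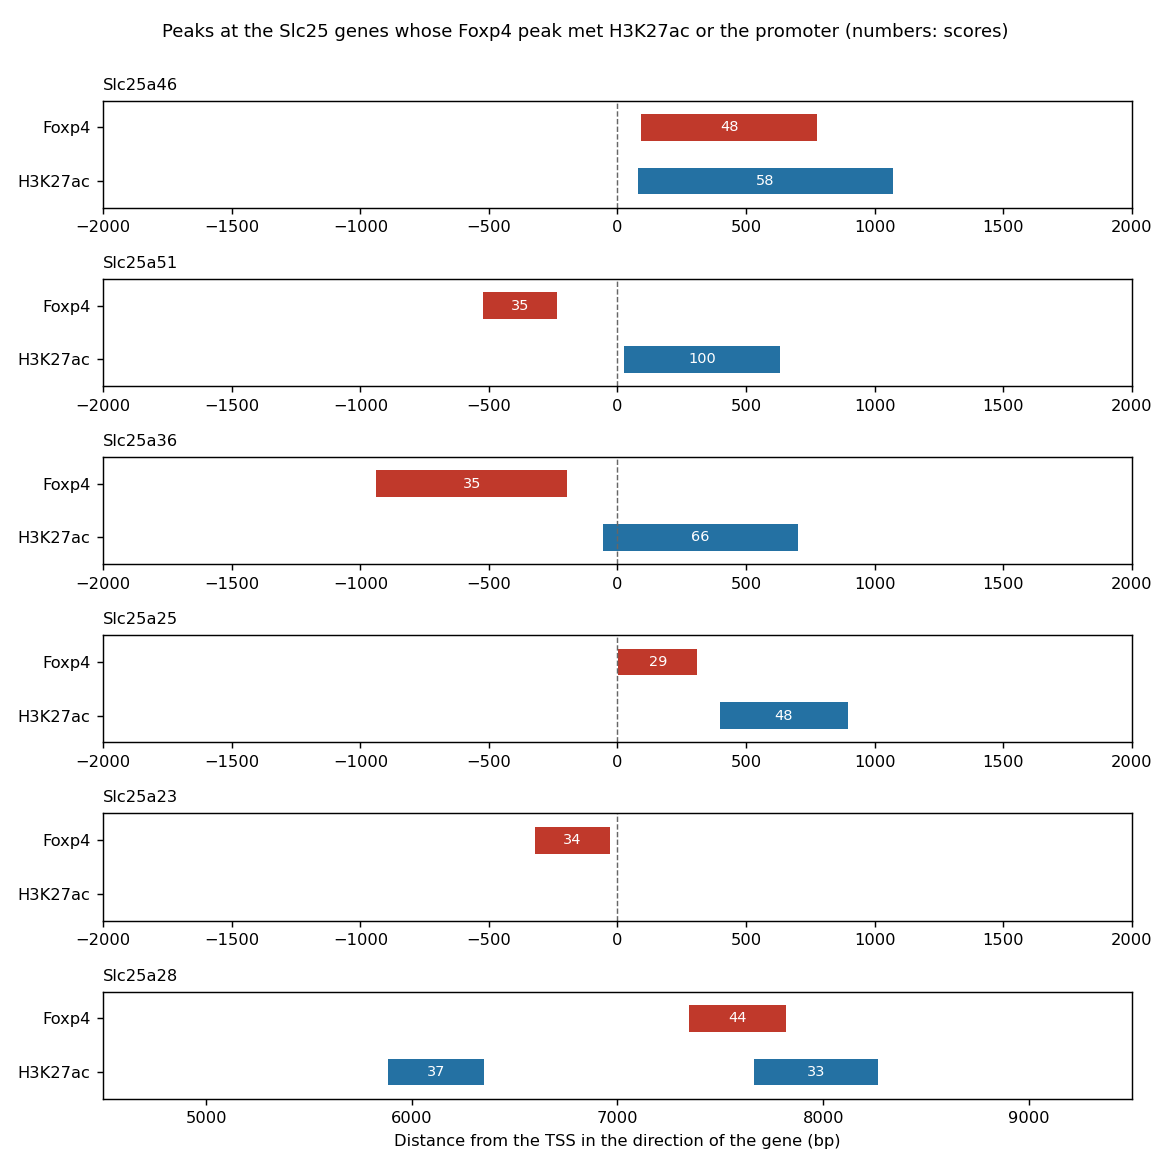
Foxp4 peaks (red) and H3K27ac peaks (blue) by distance in bp from the TSS in the direction of the gene, with the score of each peak inside its bar; the dashed line is the TSS, which lies outside the range drawn for Slc25a28. The bars coincide at Slc25a46, lie side by side at Slc25a51, Slc25a36 and Slc25a25, share 160 bp at Slc25a28, and Slc25a23 has no blue bar; the blue bar at Slc25a25 was assigned to Naif1.

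Slc25a46, whose product sits in the outer mitochondrial membrane and acts in mitochondrial fission and lipid exchange, was the member with Foxp4 inside an acetylated promoter. Its Foxp4 peak had a score of 48, above 95.04% of the Foxp4 list, and centred 435 bp downstream of the TSS in intron 1, at a CpG island. All 684 bp of it lay inside an H3K27ac peak of 991 bp and score 58. This was the highest Foxp4 promoter score of the family.

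Slc25a51, the carrier of NAD+ into mitochondria, had the strongest marks of the family in both lists. An H3K27ac peak of score 100, above 95.6% of its list, centred 330 bp downstream of the TSS in intron 1 at a CpG island (chr4:45408133-45408739). On the other side of the TSS, 380 bp upstream, stood a Foxp4 peak of score 35 (chr4:45409002-45409290), with 262 bp between both peaks. A second Foxp4 peak of score 57, above 98.4% of the list, lay 5108 bp upstream (chr4:45413711-45414037), 4971 bp from the H3K27ac peak. Another of score 34, at 54605 bp upstream, fell in intron 2 of Shb and thus in another gene. Scores 57 and 34 are among the recurring ones.

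Slc25a36, a carrier of pyrimidine nucleotides, had the same arrangement as Slc25a51. Its Foxp4 peak of score 35 centred 567 bp upstream of the TSS (chr9:97111237-97111979), and its H3K27ac peak of score 66 centred 323 bp downstream (chr9:97110338-97111098). The gap between both was 138 bp, and the promoter sequence above runs from the end of the Foxp4 peak into the H3K27ac peak. A further Foxp4 peak of score 34 was assigned from 45340 bp downstream.

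Slc25a25 and Slc25a23 both encode calcium-regulated carriers that exchange ATP-Mg for phosphate. At Slc25a25 a Foxp4 peak of score 29 lay in exon 1, 157 bp downstream of the most upstream start (chr2:32451159-32451467). An H3K27ac peak of score 48, assigned to Naif1, lay 86 bp from it and 646 bp downstream of the Slc25a25 start. The H3K27ac peak assigned to Slc25a25 itself had a score of 29 and lay in intron 1, 6660 bp upstream of another start of the gene (chr2:32437498-32438124). At Slc25a23 the Foxp4 peak had a score of 34, a recurring one, and centred 175 bp upstream of the TSS (chr17:57059892-57060184). The closest H3K27ac peak was 44091 bp away, at Tnfsf9.

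Slc25a28, mitoferrin 2, which brings iron into mitochondria, had the only overlap outside a promoter. In intron 1, 7584 bp past the TSS, stood a Foxp4 peak with a score of 44, above 94.0% of the list (chr19:43667060-43667534). It shared 160 bp with an H3K27ac peak of score 33 (chr19:43666614-43667219), and a second H3K27ac peak of score 37 lay 994 bp away. The overlap was lost where at least 50% of the shorter peak had to be shared or a centre had to lie in the other peak. The other mitoferrin gene, Slc25a37, had no peak in either list.

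Outside promoters the Slc25 genes had 14 Foxp4 peaks, and 13 of them lay more than 1000 bp from any H3K27ac peak, as did 91.7% of all Foxp4 peaks outside promoters. Over all positions, 2 of 19 Slc25 Foxp4 peaks (10.5%) overlapped H3K27ac, against 8.21% of the list, and 2 of 37 Slc25 H3K27ac peaks (5.41%) overlapped Foxp4, against 7.91%. Slc25a27, a relative of the uncoupling proteins known from brain, carried Foxp4 in intron 1 at 1499 bp past the TSS with a score of 41 (chr17:43665486-43665945), and no H3K27ac peak within 119038 bp. Slc25a33, a pyrimidine nucleotide carrier, had Foxp4 peaks of score 22 and 21 far upstream, at 47993 and 68748 bp, interspersed with H3K27ac peaks at 64450 and 72897 bp. The other Foxp4 peaks were at Slc25a4, Slc25a13, Slc25a17, Slc25a18, Slc25a26, Slc25a30 and Slc25a39, with scores between 21 and 34 and distances between 8680 and 91168 bp. The one assigned to Slc25a18 lay in exon 15 of Cecr2, another gene.

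**Figure D3:**
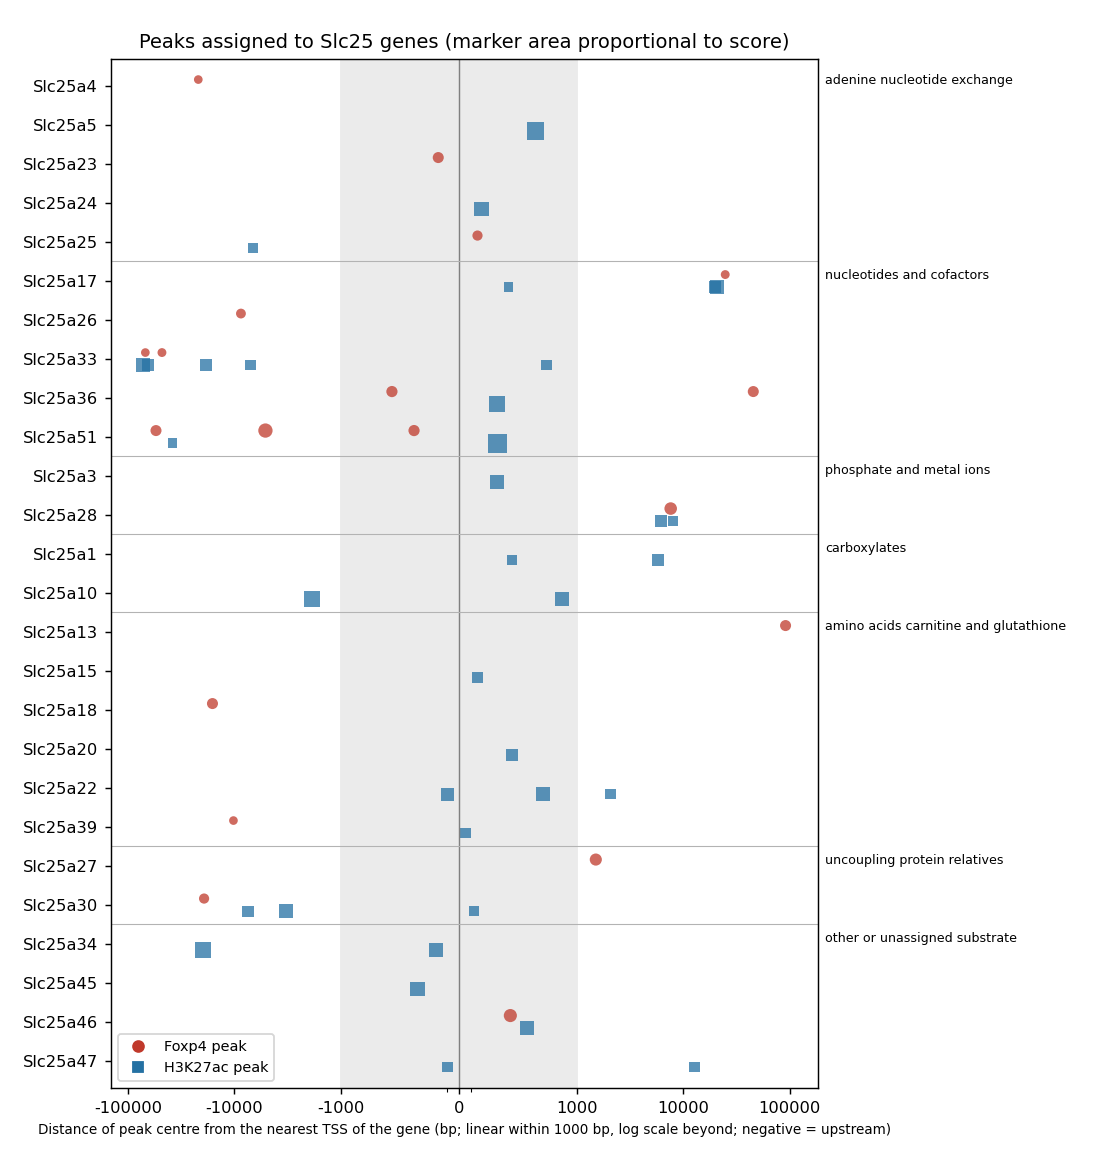
Peaks of Slc25 genes, by the distance of the peak centre from the nearest TSS of the gene (linear within 1000 bp, shaded, and log scale beyond), Foxp4 in red and H3K27ac in blue, with marker area proportional to score. Most H3K27ac markers lie in the shaded zone, as do 5 of 19 Foxp4 markers; 1 member with a peak is not drawn.

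Among carriers of adenine nucleotides, the translocases differed in their H3K27ac calls. These proteins exchange cytosolic ADP for matrix ATP. Slc25a5, the isoform of most tissues, had an H3K27ac peak of 1068 bp and score 82, above 91.3% of the list, centred 645 bp downstream of the TSS in intron 1 at a CpG island (chrX:36795709-36796776). Slc25a4, the isoform of heart and muscle, had no H3K27ac peak, and the closest one to its start was 192634 bp away at Acsl1. Its single Foxp4 peak had a score of 21 and lay 21855 bp upstream. Slc25a31, the germ-cell isoform, had no peak in either list. Of the ATP-Mg carriers, Slc25a24 had an H3K27ac peak of score 58 in exon 1 (chr3:109123173-109123506), 190 bp downstream of the TSS, and Slc25a41 had no peak.

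Slc25a3, which supplies phosphate for ATP synthesis, had 1 H3K27ac peak of score 55 in exon 2, 322 bp downstream of the TSS (chr10:91123424-91123859). No Foxp4 peak lay within 240088 bp of it. Of the 4 carriers of carboxylates, 2 were assigned H3K27ac, against 37.5% of all genes. Both had it at the promoter (50.0%, against 26.0% of all genes). Slc25a1, the citrate carrier, carried H3K27ac in intron 1 at 449 bp past the TSS with a score of 33 (chr16:17927487-17928053), and a second peak of score 39 beyond the gene. Slc25a10, the dicarboxylate carrier, had one of score 56 in intron 1, 872 bp downstream (chr11:120492133-120493285), and one of score 74 at 1864 bp upstream. No carboxylate carrier had a Foxp4 peak assigned, against 36.6% of all genes with one, and 4 genes are too few to compare. Slc25a11 had the H3K27ac peak given to Rnf167, and Slc25a21 had no peak in either list.

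Carriers of amino acids, carnitine and glutathione had H3K27ac at 4 of 12 promoters by the nearest TSS (33.3%, against 26.0% of all genes). Slc25a20, the carnitine-acylcarnitine carrier of fatty acid oxidation, carried H3K27ac in intron 1 at 447 bp past the TSS with a score of 39 (chr9:108662353-108662738). Slc25a22, a glutamate carrier, had 3 H3K27ac peaks with scores between 30 and 54, of which 2 lay at a start. Slc25a15, an ornithine carrier, had a promoter peak of score 34 that the authors' annotation places in the promoter of the neighbouring 1810012K16Rik, and Slc25a39, the glutathione carrier, one of score 31 that was the widest of the family at 1554 bp. Slc25a44, a carrier of branched-chain amino acids known from brown fat, had no peak assigned. An H3K27ac peak of score 29 inside its annotated span (chr3:88410567-88411179) was given to Pmf1, 476 bp upstream of the Pmf1 TSS. A second one of score 52 (chr3:88409319-88409727), 767 bp outside the span, was also given to Pmf1, 874 bp downstream of the Pmf1 TSS. Slc25a44 has no promoter entry, so the distance of these peaks from its own start was not measured. Foxp4 peaks in this group numbered 3, at Slc25a13, Slc25a18 and Slc25a39, none of them at a promoter.

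Carriers of nucleotides and cofactors held the most peaks of the substrate groups, with 9 Foxp4 and 12 H3K27ac peaks over 9 genes. Foxp4 peaks were assigned to 5 of the 9 (55.6%, against 36.6% of all genes). H3K27ac stood at 5 of the 9 promoters (55.6%, against 26.0% of all genes). With 9 genes the differences were not tested. Besides Slc25a36 and Slc25a51, the genes with an acetylated promoter included Slc25a17, the peroxisomal carrier, with a promoter score of 24. They also included Slc25a33, with a promoter score of 31 and a score of 56 at a distal peak. Slc25a33 had 5 H3K27ac peaks, the most of any member. Of the carriers placed in no substrate group here, Slc25a34 had a promoter peak of score 51 (chr4:141623685-141624369) and one of score 77 within intron 1 of Plekhm2, and Slc25a45 had a promoter peak of score 62 and 1356 bp (chr19:5876791-5878146). Slc25a47, known from liver, had a promoter peak of score 30. Slc25a30, a relative of the uncoupling proteins, had a promoter peak of score 30 and a stronger one of score 50 at 3259 bp upstream.

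The 20 members with no peak assigned in either list were Slc25a2, Slc25a11, Slc25a12, Slc25a14, Slc25a16, Slc25a21, Slc25a29, Slc25a31, Slc25a32, Slc25a35, Slc25a37, Slc25a38, Slc25a40, Slc25a41, Slc25a42, Slc25a43, Slc25a44, Slc25a48, Slc25a53 and Slc25a54. An H3K27ac peak of score 52 assigned to Dcaf13 lay 208 bp outside the annotated span of Slc25a32, a folate carrier gene. At Slc25a38, a glycine carrier, the closest H3K27ac peak lay 17740 bp from its start, at the ribosomal gene Rpsa. No call in a list of unknown depth is not evidence that a site is empty.

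Peak strength and shape of the family were set beside those of the lists. The 20 H3K27ac promoter peaks of Slc25 genes had scores from 24 to 100 with a median of 49, against 51 over all 6415 H3K27ac promoter peaks, and a median width of 766 bp, against 660 bp. Of the 20, 15 centred downstream of the TSS, as did 71.1% of all H3K27ac promoter peaks. The 5 Foxp4 promoter peaks scored 29, 34, 35, 35 and 48, with a median of 35, against 32 over all Foxp4 promoter peaks. Over all positions, the 19 Slc25 Foxp4 peaks had a median score of 34, against 27 for the list. Their median width was 403 bp, against 354 bp. Both median scores are recurring ones that follow each other in the recurring set, and 34 is also the upper quartile of the list. Of the 19, 7 centred downstream of the TSS (36.8%), against 57.5% of the list. These differences rest on few peaks and were not tested. Of Slc25 genes with a Foxp4 peak, 3 of 15 (20.0%) had more than 1, against 40.3% of all genes with one. For H3K27ac the order was the opposite, with 10 of 21 Slc25 genes (47.6%) and 40.1% of all genes with a peak having more than 1. By the authors' classes, 6 of the 19 Slc25 Foxp4 peaks fell in introns (31.6%, against 43.5% of the list) and 8 in intergenic sequence (42.1%, against 45.2%). A further 3 were in promoters (15.8%, against 6.12%) and 2 in exons (10.5%, against 2.01%). Repeats held 4 of the 19 (21.1%, against 32.0% of the list).

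**Figure D4:**
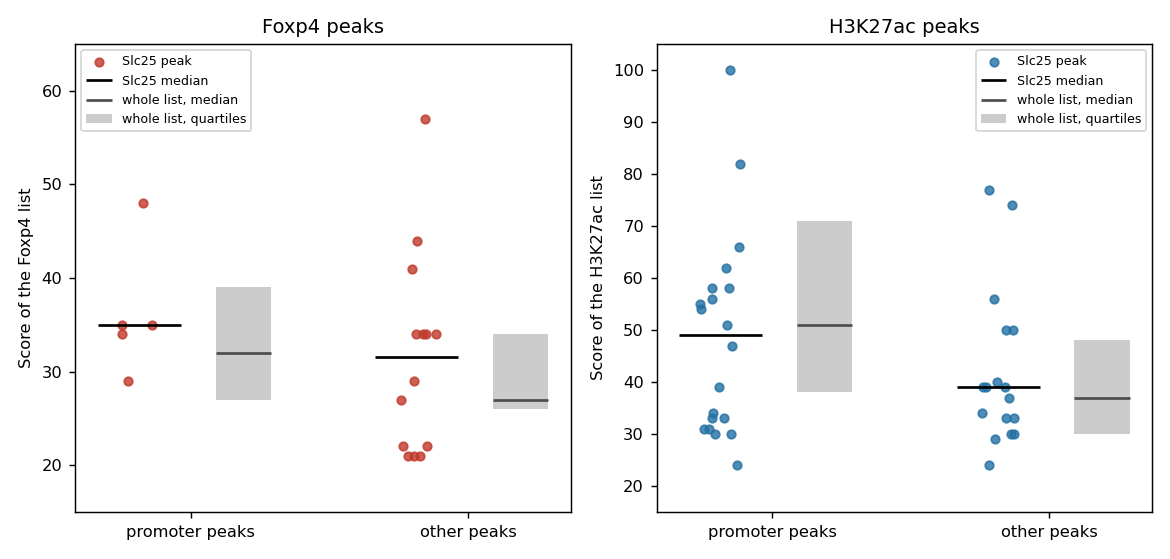
Scores of Slc25 peaks (points, black line at the median) beside the quartiles and median of the whole list (grey box and line), for promoter peaks and other peaks of the Foxp4 list (left) and the H3K27ac list (right); the scales of both lists are not comparable. The Slc25 medians are 35 and 31.5 for Foxp4, against 32 and 27, and 49 and 39 for H3K27ac, against 51 and 37.

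Composition was compared over the 46 promoter windows of the 36 genes. The 24 windows of the 19 genes with H3K27ac at a promoter, by the nearest TSS or an own start, had a median GC content of 60.7% and 16.5 CpG dinucleotides, and the 22 windows of the other members had 56.0% and 15. Over all protein-coding genes the medians were 62.3% and 23 with the mark and 54.0% and 8 without it. The number of CpG thus differed less between marked and unmarked members than between marked and unmarked genes in general. A marked member counted with all its windows. Those of Slc25a25 with 7 and 6 CpG were therefore included, although its H3K27ac peak lay near another start. Slc25a4, printed above and without H3K27ac, held 25 CpG, and Slc25a5 held 18. Among acetylated members, the window of Slc25a34 held 1 CpG and that of Slc25a39 held 45.

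Motifs were searched on both strands of the same windows. The forkhead motif TGTTTAC was in 0 of 46 Slc25 windows, in 3.65% of all 32851 windows of the table and in 2.90% of those of protein-coding genes. The shorter cores GTAAAC and TGTTTA, which TGTTTAC contains on opposite strands, were added after the sequences were seen. GTAAAC was in 3 Slc25 windows (6.52%), against 7.89% of all windows and 6.73% of those of protein-coding genes. The 3 windows belong to 2 genes, since 2 overlapping windows of Slc25a23 hold the same site. TGTTTA was in 6 Slc25 windows (13.0%), against 13.4% of all windows and 11.3% of those of protein-coding genes. GTAAAC occurred 166 bases upstream of the start at Slc25a23, within the bases of the Foxp4 peak printed in capitals, and TGTTTA 128 bases upstream at Slc25a36, between both peaks. CCGGAAG, bound by the GABP factor of many mitochondrial genes, was in 7 windows (15.2%), against 8.86% of all windows and 11.9% of those of protein-coding genes, among them Slc25a3, Slc25a4, Slc25a17, Slc25a20 and Slc25a25. The ERR half-site AAGGTCA was in 1 window (2.17%, against 4.72%), the YY1 motif AAGATGG in 2 (4.35%, against 6.34%) and the NRF1 motif in 0 (against 0.971%). Among windows of protein-coding genes these 3 shares were 4.03%, 6.30% and 1.38%.

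The other carrier genes and the machinery that inserts carriers were read in the same way. Of the uncoupling proteins, Ucp1 had no peak in either list. Ucp2 had Foxp4 peaks of score 34 and 23 and an H3K27ac peak of score 20, and Ucp3, the muscle form, had a Foxp4 peak of score 27 at 2464 bp upstream and H3K27ac peaks of score 56 and 63, none of them within 1000 bp of a TSS. The carrier-like proteins of the outer membrane, Mtch1 and Mtch2, had H3K27ac promoter peaks of up to 39 and 77 and no Foxp4 peak. Of 11 genes of carrier import through the TOM and TIM22 complexes, 8 carried H3K27ac at the promoter (72.7%, against 26.0% of all genes), with scores from 30 at Timm8a1 to 74 at Timm9, a chaperone of the intermembrane space. Foxp4 peaks were assigned to 4 of the 11 (36.4%, against 36.6% of all genes), Timm8a1, Timm9, Timm22 and Tomm70a, and 0 lay at a promoter. The 3 given to Timm8a1 lie on chromosome 10 in the deposited table, although RefSeq places the gene on chromosome X. Timm8a1 is among the 4 only through these 3 peaks. Timm29 and Tomm22 had no peak in either list, and Timm22, the channel subunit, had no H3K27ac peak.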

How the data were processed

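The deposited peak lists were narrowPeak files of 1 library each, annotated with HOMER annotatePeaks.pl on mm10, per the file headers. Bowtie2, Picard, SAMtools, MACS2 and deepTools 3.3.0 appear in the submitters' processing notes with no settings. The deposited score is a whole number per peak whose scale the files do not state, so scores were compared only within a list. How the input entered the calls, and at which threshold, is not given in the sources used here. A deeper library yields more peaks, and depth cannot be read from the lists.

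The 1 Foxp4 peak on the mitochondrial genome was dropped. Peaks were given to genes through the deposited nearest TSS, matched by Entrez identifier to protein-coding genes with a curated transcript in RefSeq GRCm38.p6. The 47 members, their substrate groups and the other lists were chosen with earlier results of these data known. With 1 library per antibody no test was made, so no p-value is given, and the main shares are set beside those over all genes or peaks. A promoter peak had its centre within 1000 bp of a TSS, and overlap meant at least 1 shared bp. Genes named are those with a Foxp4 promoter peak or a Foxp4 peak in H3K27ac, the 10 with the highest H3K27ac score, the 5 with the highest Foxp4 score, 7 carriers chosen by name, those with no peak and 2 related lists. Other peaks named for their position were chosen after their values were seen.

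Protein sequences and the genome were not used here, so a planned count of the carrier signature was not run. Values of 1 member are not reported here, although all counts include it. The overlap code was tested on simulated lists and found 300 of 300 planted overlaps. Python 3.11.15, numpy 2.4.6, pandas 2.3.3 and matplotlib 3.10.9 were used.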

Additional observations from a re-analysis of the deposited data

How the results depend on the processing

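Of 28 alternatives, 20 left the count of Slc25 genes within 1.5 times its value and 8 did not. In the higher-scoring 50% of each list, H3K27ac was assigned to 13 members (27.7%, against 25.3% of all genes). It lay at the promoter of 10 (21.3%, against 18.5%), and 1 had Foxp4 overlapping H3K27ac (2.13%, against 2.85%). In the full lists these counts were 21, 19 and 2. Without the recurrent Foxp4 scores, 8 members had a Foxp4 peak, against 15. By the authors' promoter class, 3 had a Foxp4 promoter peak and 7 an H3K27ac promoter peak, against 5 and 19. The overlapping gene count was 1 (2.13%, against 4.02% of all genes) where the shorter peak had to be shared by at least 50%. It was also 1 (2.13%, against 4.01%) where a centre had to lie inside the other peak. All 8 settings lowered the counts, because each kept fewer peaks or a narrower rule. Assignment by RefSeq span widened by 5 kb counted 25 members with an H3K27ac promoter peak (53.2%, against 33.8% of all genes). It counted 6 with a Foxp4 promoter peak (12.8%, against 9.63%). Promoters of neighbouring genes are among these peaks. The assignment to own RefSeq starts was chosen after seeing the data. No paired analysis was possible because each antibody had 1 library, and for the same reason no replicate could be left out. Absence of a peak means no call at an unknown depth.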
